A study of Danio rerio with 18 samples.

Results

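The genes described here encode the enzymes of gluconeogenesis, the pathway that makes new glucose from lactate, amino acids and glycerol. Gluconeogenesis bypasses the irreversible steps of glycolysis with its own enzymes. Pyruvate carboxylase and phosphoenolpyruvate carboxykinase turn pyruvate into phosphoenolpyruvate, fructose bisphosphatase removes a phosphate from fructose bisphosphate, and glucose phosphatase releases free glucose. In vertebrates the pathway runs mainly in liver and kidney, and its genes are known to be lowered by insulin and raised by glucagon and glucocorticoids.

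From a list of 10 zebrafish symbols (pck1, pck2, g6pc1a.1, g6pc1a.2, g6pc1b, fbp1a, fbp1b, fbp2, pcxa and pcxb), genes were taken whose symbol matched, ignoring case or, failing that, a final a or b. This gave 8 of the 32520 Ensembl gene IDs in the count tables. They were pck1 (ENSDARG00000013522), pck2 (ENSDARG00000020956), g6pc1a.1 (ENSDARG00000031616), fbp1a (ENSDARG00000021366), fbp1b (ENSDARG00000020364), fbp2 (ENSDARG00000012366) and a pair of IDs with the symbol G6PC1, matched through g6pc1b. Of that pair, ENSDARG00000013721 is called the major G6PC1 gene here and ENSDARG00000014967 the minor one, from their levels. The name table does not say which of them is g6pc1b and which, if either, is g6pc1a.2. No ID matched pcxa or pcxb. As these encode the first enzyme of the pathway, 2 IDs with the human symbol PC, pyruvate carboxylase, were added beside the rule. ENSDARG00000098766 is called the steady PC gene and ENSDARG00000051939 the variable PC gene, from their spread. This made 10 genes in all.

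RNA-Seq had been performed on whole zebrafish larvae of the Tg(fli1:EGFP) reporter line, collected at 120 hpf. The paper describes medium with or without PTU, and PTU in its treatment experiments, without naming the RNA-Seq samples. There were 6 samples of pooled larvae in each of 3 groups. The groups were untreated akr1a1a+/+ larvae, untreated akr1a1a-/- larvae and akr1a1a+/+ larvae treated with acrolein (ACR), a reactive aldehyde that Akr1a1 enzymes detoxify, from 24 hpf on. The akr1a1a-/- line carries a CRISPR/Cas9-induced deletion-insertion in exon 2 of akr1a1a and comes from 1 selected mutation. Untreated akr1a1a+/+ libraries came from lane 2 and akr1a1a-/- libraries from lane 3, and genotype and lane cannot be told apart between these groups, while ACR-treated replicates 1 to 3 were on lane 2 and replicates 4 to 6 on lane 3. Total counts were between 19878464 and 20463404 per sample. The level of akr1a1a itself lay between 2.32 and 3.41 CPM (counts scaled to a fixed total) in akr1a1a+/+ larvae and between 0.306 and 0.741 CPM in akr1a1a-/- larvae, a log2 fold change of -2.75 ± 0.17 (SE, n = 6 per group, edgeR adjusted p = 1.13e-09). In ACR-treated larvae it was between 2.76 and 3.75 CPM. As whole larvae were used, fewer cells of a tissue and less RNA per cell cannot be told apart in any value below. Of the lists of tissue markers written for this report, no liver, intestine, kidney tubule or skeletal muscle marker was at or under 3 counts in every sample.

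Levels of different genes were compared as TPM (estimates corrected for gene length and for sequencing depth). In untreated akr1a1a+/+ larvae, pck1 had the highest mean with 239.6 ± 70.7 TPM (SD, n = 6), and 1.48% of the 29365 genes above 0 had a higher mean. It was followed by fbp1b with 166 ± 22.1 TPM, the major G6PC1 gene with 104 ± 30.3 TPM and pck2 with 89.4 ± 9.69 TPM. The ranges of pck1 and fbp1b overlapped, as did those of the major G6PC1 gene and pck2. The lowest fbp1b sample (150.2 TPM) lay just above the highest sample of the major G6PC1 gene (147 TPM). A second tier was made up of fbp1a (38.3 ± 4.70 TPM), fbp2 (34.2 ± 6.39 TPM), the steady PC gene (31.9 ± 2.58 TPM) and the variable PC gene (28.0 ± 9.01 TPM), in which each neighbour in the order overlapped the next. It was separated from pck2, whose lowest sample had 79.2 TPM against 42.9 TPM in the highest fbp1a sample. The gene g6pc1a.1 reached 15.3 ± 3.59 TPM and overlapped the variable PC gene. The minor G6PC1 gene was nearly silent with 0.157 ± 0.0679 TPM, a mean that 91.1% of the genes above 0 exceeded.

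**Figure D1:**
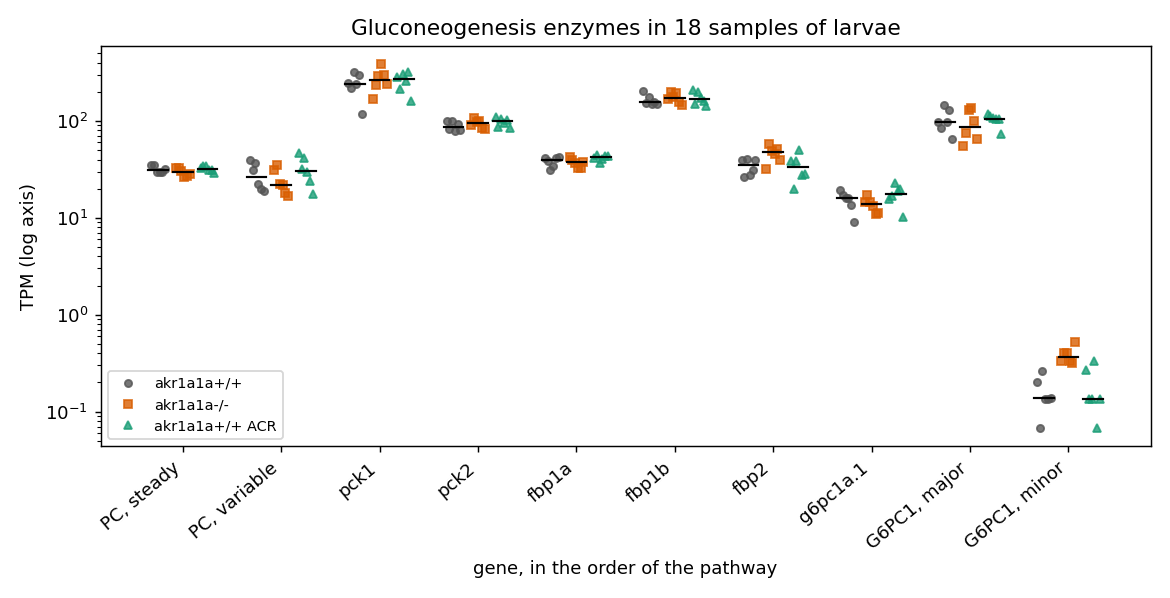
TPM (log axis) of the 10 genes in the order of the pathway, with 1 point per sample, 6 per group, and a black line at each group's median. The 3 groups overlap for every gene but the minor G6PC1 gene, whose akr1a1a-/- samples all lie above the untreated akr1a1a+/+ samples; pck1 is the highest gene by mean in untreated akr1a1a+/+ larvae (239.6 TPM).

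Each of the 3 groups was compared with the others by the quasi-likelihood test of edgeR, and p values were adjusted by the Benjamini-Hochberg method over all 23223 genes that passed a filter on low counts. The comparison of akr1a1a-/- with akr1a1a+/+ larvae asks how the loss of the enzyme changed expression, and that of ACR-treated with untreated larvae asks the same of its substrate. Of the 10 genes, 9 passed the filter (7 of the 8 taken by the rule), and the minor G6PC1 gene did not. None of the 9 genes had an adjusted p under 0.05 in any of the 3 comparisons. Over all genes tested, 16.2% passed in akr1a1a-/- against akr1a1a+/+ larvae, 0.0258% in ACR-treated against untreated larvae and 13.8% in akr1a1a-/- against ACR-treated larvae. An unadjusted p under 0.05 was reached by 1 of the 9 genes in akr1a1a-/- against akr1a1a+/+ larvae, where 29.8% of all genes reached it, by 0 of 9 after ACR treatment, where 5.42% did, and by 1 of 9 in akr1a1a-/- against ACR-treated larvae, where 27.1% did. In akr1a1a-/- against akr1a1a+/+ larvae, 5 genes had a positive and 4 a negative log2 fold change, with a median of 0.01, beside a median of -0.00074 over all genes tested. DESeq2's Wald test called 0 of the 9 genes in the comparisons with untreated akr1a1a+/+ larvae and 1, fbp2, in akr1a1a-/- against ACR-treated larvae.

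**Figure D2:**
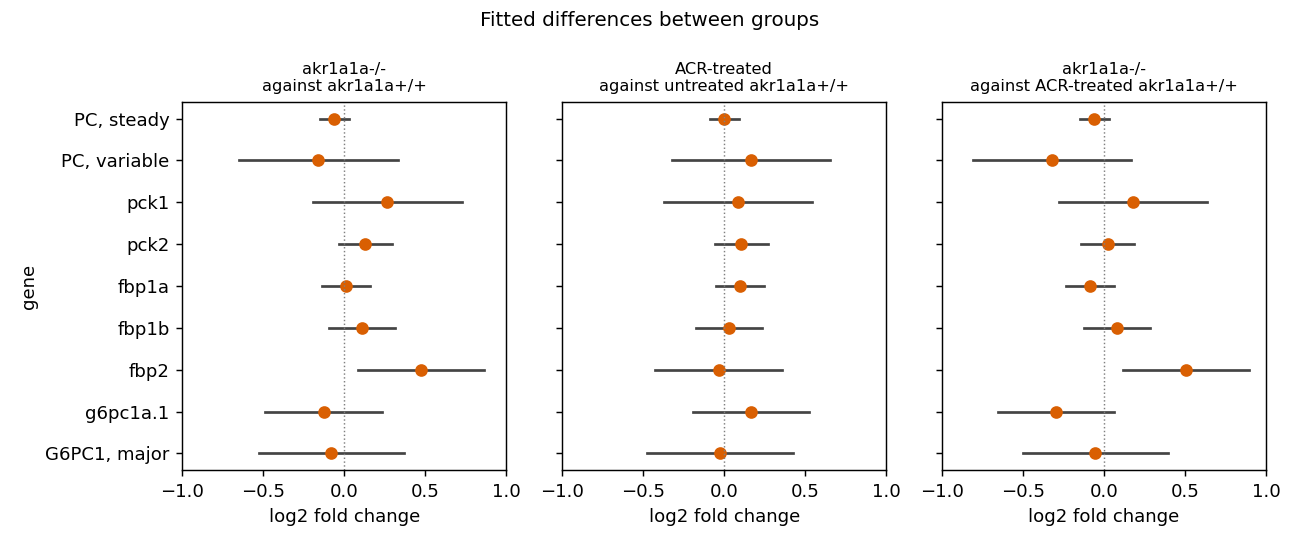
Log2 fold change (points) and approximate 95% interval (lines, unadjusted) of the 9 genes tested, in 3 comparisons of 6 against 6 samples. All intervals include 0 except those of fbp2 in the panels of akr1a1a-/- against untreated (0.08 to 0.86) and ACR-treated (0.12 to 0.89) akr1a1a+/+ larvae.

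The pathway starts with pyruvate carboxylase, the mitochondrial enzyme that makes oxaloacetate from pyruvate. The steady PC gene lay between 142 and 159.7 CPM (median 147) in akr1a1a+/+ larvae, between 132 and 152 CPM (median 144) in akr1a1a-/- larvae and between 143 and 155 CPM (median 149) after ACR treatment. The groups overlapped throughout and no sample stood apart. Against akr1a1a+/+ larvae, akr1a1a-/- larvae showed a log2 fold change of -0.06 ± 0.04 (SE; edgeR adjusted p = 0.367), with a 95% interval from -0.15 to 0.03. ACR treatment gave 0.00 ± 0.04, with an interval from -0.09 to 0.09. These were the narrowest intervals of the 9 genes, and among 21341 genes with a mean of at least 1 CPM, 86.8% had a larger SD of log2 CPM within akr1a1a+/+ larvae than the 0.07 of this gene.

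The variable PC gene lay between 75.2 and 162 CPM (median 109) in akr1a1a+/+ larvae, between 73.6 and 147 CPM (median 92.9) in akr1a1a-/- larvae and between 71.5 and 189 CPM (median 125) after ACR treatment. High and low samples were spread over every group, and in each group replicates 1 to 3 were all above replicates 4 to 6. In akr1a1a+/+ larvae, which were all on lane 2, replicates 1 to 3 had 162, 126 and 152 CPM and replicates 4 to 6 had 92.5, 81.3 and 75.2 CPM. In akr1a1a-/- larvae, all on lane 3, the values were 129.6, 147 and 92.9 CPM against 92.8, 81.0 and 73.6 CPM. In ACR-treated larvae, in which this division is also that of the lanes, they were 189, 126 and 167 CPM against 123, 95.4 and 71.5 CPM. What the replicate numbers stand for is not given in the sources used here. Of all genes tested, 60 (0.258%) had replicates 1 to 3 above replicates 4 to 6 in all 3 groups, a pattern looked for after these values had been seen. In akr1a1a-/- against akr1a1a+/+ larvae the log2 fold change was -0.16 ± 0.23 (SE) (edgeR adjusted p = 0.698) and 0.16 ± 0.23 after ACR treatment (edgeR adjusted p = 0.957). With the lane as a covariate, which can be estimated only from the ACR-treated samples, the former turned to 0.57 ± 0.36 (edgeR adjusted p = 0.334). In the ACR-treated samples the lane is also the division of replicates 1 to 3 from 4 to 6. Here and below, the lane covariate therefore cannot be told apart from an effect of the replicate number.

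Phosphoenolpyruvate carboxykinase follows, with a cytosolic form encoded by pck1 and a mitochondrial form encoded by pck2. Levels of pck1 were between 204 and 579.6 CPM (median 434) in akr1a1a+/+ larvae, between 313 and 732 CPM (median 498) in akr1a1a-/- larvae and between 279 and 556 CPM (median 485) after ACR treatment. The lowest samples of the akr1a1a+/+ and ACR-treated groups were both replicate 6, while replicate 6 of akr1a1a-/- larvae, with 481 CPM, was near the middle of its group. The spread within untreated akr1a1a+/+ larvae, an SD of 0.53 on the log2 CPM scale, was exceeded by 3.08% of the 21341 genes. The log2 fold change was 0.27 ± 0.22 (SE) in akr1a1a-/- larvae (edgeR adjusted p = 0.446), with a 95% interval from -0.19 to 0.72. After ACR treatment it was 0.09 ± 0.22 (edgeR adjusted p = 0.981). Within lane 3, akr1a1a-/- and ACR-treated larvae differed by 0.24 ± 0.24 (edgeR adjusted p = 0.603), beside 7.99% of all genes called in that fit.

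Levels of pck2 were more even. They lay between 196 and 252 CPM (median 212) in akr1a1a+/+ larvae, between 218 and 266 CPM (median 235) in akr1a1a-/- larvae and between 205 and 265 CPM (median 241) after ACR treatment, and the 3 ranges overlapped. Relative to akr1a1a+/+ larvae, akr1a1a-/- larvae had a log2 fold change of 0.13 ± 0.08 (SE) (edgeR adjusted p = 0.285), with a 95% interval from -0.03 to 0.29. After ACR treatment it was 0.11 ± 0.08 (edgeR adjusted p = 0.93). Each of the 6 ACR-treated samples was above the untreated sample of the same number, by a mean of 0.11 ± 0.08 (SD) on the log2 CPM scale, and the edgeR fit with the replicate number as a block gave an adjusted p of 0.725. The ratio of pck1 to pck2, as TPM, was 2.66 ± 0.676 (SD, n = 6) in akr1a1a+/+ larvae, 2.89 ± 0.769 in akr1a1a-/- larvae and 2.63 ± 0.413 after ACR treatment.

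Fructose bisphosphatase is encoded by fbp1a, fbp1b and fbp2. In mammals, FBP1 is the form of liver and kidney and FBP2 that of muscle. In RefSeq's annotation of a later assembly (GRCz12tu), all 3 genes are on chromosome 5. Levels of fbp1a were between 34.0 and 44.5 CPM (median 41.8) in akr1a1a+/+ larvae, between 36.0 and 46.5 CPM (median 41.0) in akr1a1a-/- larvae and between 38.2 and 45.7 CPM (median 43.9) after ACR treatment. These ranges nearly coincided. The log2 fold change was 0.01 ± 0.07 (SE) in akr1a1a-/- larvae (edgeR adjusted p = 0.934), with a 95% interval from -0.14 to 0.16, and 0.10 ± 0.07 after ACR treatment (edgeR adjusted p = 0.93).

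Levels of fbp1b were between 135 and 187 CPM (median 142) in akr1a1a+/+ larvae, between 142 and 184 CPM (median 161) in akr1a1a-/- larvae and between 128 and 187 CPM (median 153) after ACR treatment. The akr1a1a-/- range fell within that of the ACR-treated larvae. Relative to akr1a1a+/+ larvae, akr1a1a-/- larvae had a log2 fold change of 0.11 ± 0.10 (SE) (edgeR adjusted p = 0.49), with a 95% interval from -0.10 to 0.31, and 0.03 ± 0.10 after ACR treatment (edgeR adjusted p = 0.984). Of the summed TPM of the 3 fructose bisphosphatase genes, fbp1b took 69.5 ± 2.68% (SD, n = 6) in akr1a1a+/+ larvae, 67.5 ± 2.37% in akr1a1a-/- larvae and 69.4 ± 2.77% after ACR treatment.

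The gene closest to the threshold was fbp2. In akr1a1a+/+ larvae, replicates 1 to 6 had 32.8, 22.0, 35.0, 23.9, 25.9 and 32.1 CPM. In akr1a1a-/- larvae they had 27.2, 48.5, 41.1, 39.4, 46.9 and 35.3 CPM, and after ACR treatment 32.0, 15.9, 31.9, 42.3, 22.6 and 23.3 CPM. All akr1a1a-/- samples but replicate 1 were above the highest untreated akr1a1a+/+ sample, and the ranges therefore overlapped. ACR-treated replicates 1, 3 and 4 lay within the akr1a1a-/- range and the other 3 below it. Against akr1a1a+/+ larvae, akr1a1a-/- larvae had a log2 fold change of 0.47 ± 0.19 (SE), with a 95% interval from 0.08 to 0.86 (edgeR adjusted p = 0.0908), and 0.50 ± 0.19 against ACR-treated larvae (edgeR adjusted p = 0.0791). ACR treatment alone gave -0.03 ± 0.19 (edgeR adjusted p = 0.992).

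The call of fbp2 depended on the fit. It passed in a fit of only the akr1a1a-/- and akr1a1a+/+ samples (edgeR adjusted p = 0.0341, beside 15.5% of all genes called) and, against ACR-treated larvae, with DESeq2's Wald test (adjusted p = 0.0451, beside 15.1%). It also passed when akr1a1a-/- replicate 1 was left out (edgeR adjusted p = 0.0443). Adjusted p values after leaving out each sample in turn ran up to 0.178. With the lane as a covariate the log2 fold change was 0.33 ± 0.33 (edgeR adjusted p = 0.566, beside 6.45% of all genes called), and within lane 3, against ACR-treated replicates 4 to 6, it was 0.43 ± 0.21 (edgeR adjusted p = 0.242). The share of fbp2 in the summed TPM of the fructose bisphosphatase genes was 14.3 ± 1.87% (SD, n = 6) in akr1a1a+/+ larvae, 17.9 ± 2.82% in akr1a1a-/- larvae and 13.5 ± 3.21% after ACR treatment, and these shares also overlapped. Of 22 markers of skeletal muscle tested in the same comparison, 5 rose and 0 fell, beside 16.2% of all genes called. The median log2 fold change over the 22 was 0.09, with 19 positive and 3 negative values. With the lane as a covariate 3 of the 22 were called, beside 6.45%. The summed level of the 22 markers was between 84654 and 97780 CPM in akr1a1a+/+ and between 90572 and 106405 CPM in akr1a1a-/- larvae, and no defining marker was at 0. The part of muscle in the fbp2 values was not tested.

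The last step, the release of glucose in the endoplasmic reticulum, is catalysed by the subunits encoded by the g6pc1 genes. In the RefSeq annotation, g6pc1a.1 and g6pc1a.2 are both on chromosome 12 and g6pc1b is on chromosome 3. Levels of g6pc1a.1 were between 7.42 and 16.1 CPM (median 13.8) in akr1a1a+/+ larvae, between 9.85 and 14.4 CPM (median 11.7) in akr1a1a-/- larvae and between 8.44 and 18.8 CPM (median 14.7) after ACR treatment. As for pck1, the lowest sample of the untreated and of the ACR-treated akr1a1a+/+ larvae was replicate 6. Unlike for pck1, replicate 6 was also the lowest akr1a1a-/- sample, with 9.85 CPM, beside 9.92 CPM in replicate 5. The log2 fold change was -0.13 ± 0.17 (SE) in akr1a1a-/- larvae (edgeR adjusted p = 0.671), with a 95% interval from -0.49 to 0.23. After ACR treatment it was 0.17 ± 0.17 (edgeR adjusted p = 0.947), and between akr1a1a-/- and ACR-treated larvae -0.29 ± 0.17 (edgeR adjusted p = 0.288).

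Levels of the major G6PC1 gene were between 92.1 and 224 CPM (median 148) in akr1a1a+/+ larvae, between 84.6 and 211 CPM (median 141) in akr1a1a-/- larvae and between 109 and 170.0 CPM (median 158) after ACR treatment. Both genotypes covered nearly the same range, and in ACR-treated larvae 5 samples lay between 152 and 170.0 CPM with replicate 6 below them. The log2 fold change was -0.08 ± 0.22 (SE) in akr1a1a-/- larvae (edgeR adjusted p = 0.847), with a 95% interval from -0.53 to 0.37, and -0.03 ± 0.21 after ACR treatment (edgeR adjusted p = 0.994). Adding the lane as a covariate gave 0.18 ± 0.37 and 0.10 ± 0.26, so that neither direction was stable. The major G6PC1 gene made up 86.6 ± 3.26% (SD, n = 6) of the summed TPM of the 3 genes of this step in akr1a1a+/+ larvae, 85.9 ± 5.22% in akr1a1a-/- larvae and 85.5 ± 2.33% after ACR treatment.

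The minor G6PC1 gene had 3, 1, 4, 2, 2 and 2 counts in replicates 1 to 6 of akr1a1a+/+ larvae. In akr1a1a-/- larvae it had 5, 6, 6, 5, 5 and 8 counts, and after ACR treatment 4, 2, 2, 5, 1 and 2 counts. Every akr1a1a-/- sample was above every untreated akr1a1a+/+ sample, whereas the ACR-treated larvae overlapped the untreated ones and, with 5 counts in replicate 4, reached the lowest akr1a1a-/- count. Of the 23223 genes tested, to which this gene does not belong, 7.45% had akr1a1a-/- and akr1a1a+/+ ranges that did not overlap. The summed counts were 35 in akr1a1a-/- and 14 in akr1a1a+/+ larvae, a ratio of 2.46, relative to total counts, with an exact 95% interval from 1.29 to 4.96, which covers counting error only. Against ACR-treated larvae, with 16 counts, the ratio was 2.17 (1.17 to 4.19). In an edgeR fit without the filter, the adjusted p was 0.0252 against akr1a1a+/+ larvae, beside 12.2% of all genes called, and 0.0507 against ACR-treated larvae. In every sample its counts were far below those of the other genes of this step.

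In untreated and ACR-treated akr1a1a+/+ larvae, the replicate numbers bore on most of these levels. Across all genes tested, an ACR-treated sample deviated from its group mean together with the untreated akr1a1a+/+ sample of the same number, with a correlation between 0.249 and 0.603, and a fit with the replicate number as a block was therefore set beside the unpaired one. For pck1 the SD of the paired differences was 0.20 on the log2 CPM scale, beside SDs of 0.53 and 0.39 within the untreated and ACR-treated groups. For the variable PC gene it was 0.17 beside 0.47 and 0.51, and for fbp1b 0.10 beside 0.19 and 0.22. For fbp2 it was 0.47 beside 0.27 and 0.49. Differences between unrelated samples are expected to spread more than either group does, so this value does not show an absence of pairing. With the replicate number as a block, 0.138% of all genes were called after ACR treatment and still none of the 9 genes, with log2 fold changes between -0.05 for fbp2 and 0.17 for g6pc1a.1. Between akr1a1a-/- and untreated akr1a1a+/+ larvae, the correlation of same-numbered samples was only between 0.0387 and 0.131.

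**Figure D3:**
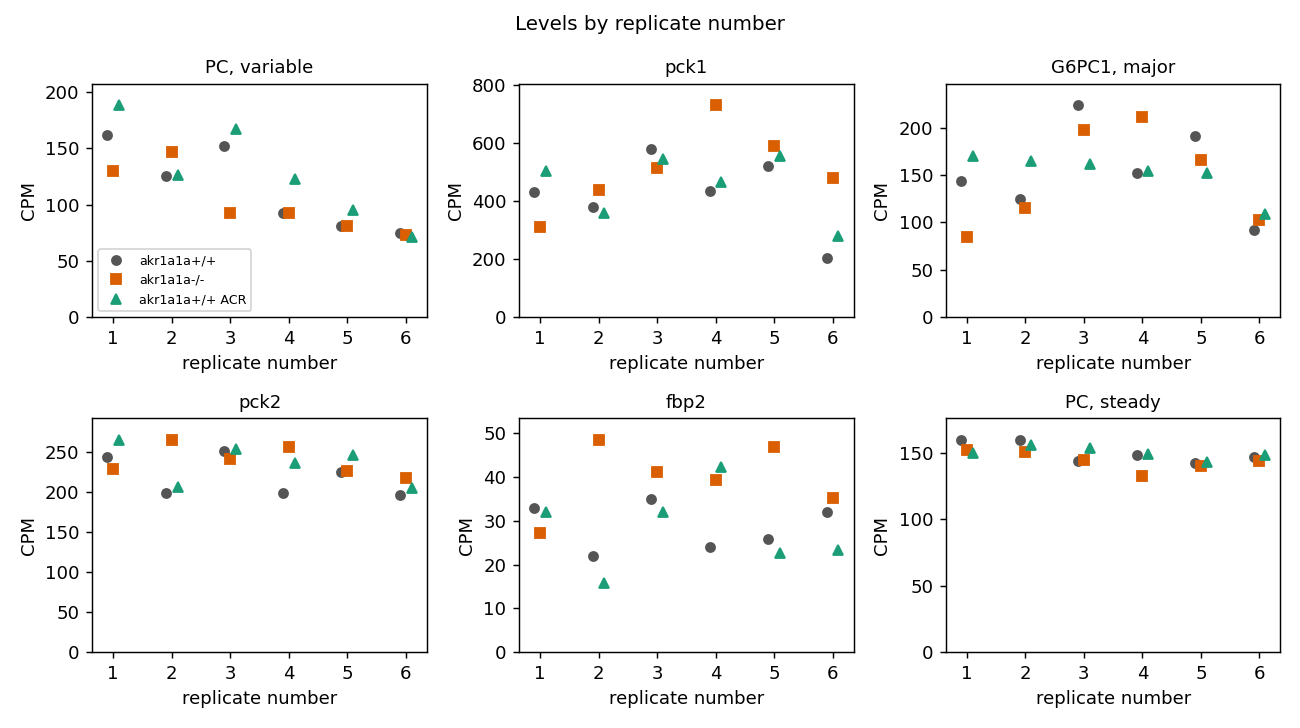
CPM of 6 genes (linear axes from 0) by replicate number, with 1 symbol per sample and group, offset sideways by group. Replicates 1 to 3 lie above replicates 4 to 6 for the variable PC gene in each group, and pck1 is lowest in replicate 6 of the untreated (204 CPM) and ACR-treated (279 CPM) akr1a1a+/+ larvae.

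The genes of the pathway did not vary together as 1 block. Correlations were computed over the 18 samples on log2 CPM values as deviations from the group means, for 36 pairs of genes. They are given without p values, since samples of the same number were not independent and all share library size and RNA composition within a sample. Of the 36 pairs, 25 had a positive and 11 a negative r, and each negative pair included fbp1a or the steady PC gene. The closest pair was pck2 and fbp1b, with r = 0.89 (Spearman's rho 0.88) and r between 0.86 and 0.96 within the 3 groups of 6. It was followed by pck1 and the major G6PC1 gene, with r = 0.85 (rho 0.78) and r between 0.75 and 0.95 within groups, and by fbp1b and the variable PC gene, with r = 0.81 (rho 0.79). Without the 2 samples farthest from the median of the first gene, these became 0.88, 0.75 and 0.74. In the opposite direction, fbp1a had r = -0.69 with both pck1 and the major G6PC1 gene, and -0.58 and -0.56 without 2 samples. Between pck1 and pck2, r was 0.64, and it was 0.25 within akr1a1a-/- larvae. Between the steady PC gene and pck1, r was -0.44.

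**Figure D4:**
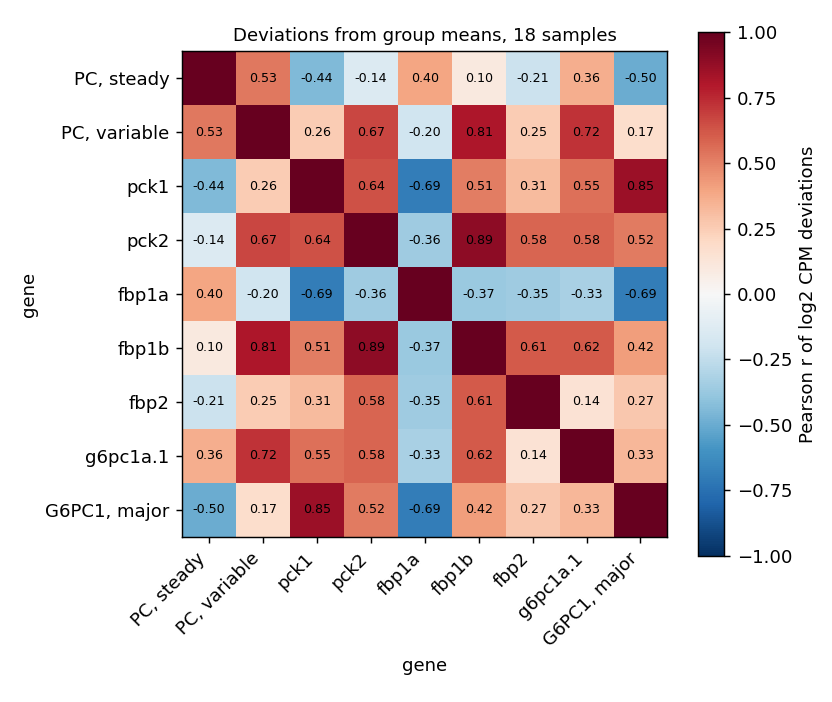
Pearson r between each pair of the 9 genes tested, over 18 samples, of log2 CPM deviations from the group means (colour scale from -1 to 1). pck2 with fbp1b (0.89) and pck1 with the major G6PC1 gene (0.85) stand out, and fbp1a is negative with pck1 and the major G6PC1 gene (-0.69 each).

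For each gene, the 3 genes with the most similar deviations were taken from the 21341 genes with a mean of at least 1 CPM, as a description. Nearest to pck1 were CYP27B1, the vitamin D activating hydroxylase (r = 0.92), si:ch211-184m19.3 (r = 0.90) and TRIB3, a pseudokinase of the stress response (r = 0.90). Nearest to the major G6PC1 gene were KLF9, a transcription factor known as a glucocorticoid target (r = 0.96), si:dkey-201c13.2 (r = 0.96) and SLC25A25, a mitochondrial ATP and phosphate carrier (r = 0.94). KLF9 also belonged to the list of regulators described below.

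Nearest to pck2 were the amino acid transporters SLC43A2 (r = 0.94) and SLC7A7 (r = 0.93) and the unconventional myosin gene myo7bb (r = 0.93). SLC43A2 was also the nearest gene of fbp1b (r = 0.94), followed by pgam1a, a phosphoglycerate mutase of the shared glycolytic steps (r = 0.92), and CYB5R2 (r = 0.91). For g6pc1a.1 they were SYCN, a protein of pancreatic zymogen granules (r = 0.90), GPT, an alanine aminotransferase (ENSDARG00000019541, r = 0.86), and DPYD (r = 0.85).

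Nearest to fbp2 were klb, a co-receptor for FGF hormones (r = 0.88), SOAT1, which esterifies cholesterol (r = 0.82), and SLC16A3, a lactate transporter (r = 0.82). SLC16A3 was the only one of these 3 to pass the test in akr1a1a-/- against akr1a1a+/+ larvae, with a log2 fold change of 0.40 (edgeR adjusted p = 0.00643). For the variable PC gene they were mgst3b, a microsomal glutathione S-transferase (r = 0.96), zgc:77748 (r = 0.94) and SRI (r = 0.94), and for the steady PC gene tnfrsfa, adam19a and PHF13 (r between 0.89 and 0.91). The weakest likenesses were those of fbp1a, with ZC3H4, stard9 and GNAI3 (r between 0.78 and 0.80).

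Genes around the dedicated enzymes were counted in akr1a1a-/- against akr1a1a+/+ larvae. They are given from lists of symbols, beside the 16.2% of all genes called. The counts for hormones and their receptors and for transcription regulators were near that share. Several listed zebrafish genes carry only a human symbol in the name table, and they are named by it. Of 19 genes tested for the reversible steps that glycolysis shares with gluconeogenesis, 4 rose and 0 fell (median log2 fold change 0.05). PGAM2, the muscle phosphoglycerate mutase, rose from 118 ± 10.3 to 164 ± 15.4 CPM (SD, n = 6 each), by 0.47 ± 0.08 (SE) on the log2 scale. TPI1 (ENSDARG00000040988), a triose phosphate isomerase, rose by 0.24 ± 0.06, and ALDOA, an aldolase, by 0.40 ± 0.10 (ENSDARG00000011665) and 0.27 ± 0.08 (ENSDARG00000034470). With the lane as a covariate 2 genes of this list were called, and none of the 4 named genes was among them, PGAM2 having an adjusted p of 0.0534.

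Of 33 genes tested for the supply and transport of precursors, 10 rose and 1 fell (median 0.11). LDHA, a lactate dehydrogenase that interconverts lactate and pyruvate, rose from 255 ± 19.1 to 386 ± 30.5 CPM, by 0.60 ± 0.07 (edgeR adjusted p = 1.89e-05). GPD1 (ENSDARG00000043701), which links glycerol to the pathway, rose from 12.0 ± 1.34 to 22.1 ± 4.35 CPM, by 0.88 ± 0.11 (edgeR adjusted p = 2.27e-05). SLC25A10 (ENSDARG00000097890), a mitochondrial dicarboxylate carrier, rose by 1.01 ± 0.16 from 1.07 to 2.17 CPM, and GPT (ENSDARG00000055642) by 0.43 ± 0.12. When the lane was added as a covariate, LDHA (0.64), GPD1 (1.05) and SLC25A10 (1.19) kept an adjusted p under 0.05 and GPT (0.41) did not. The more abundant GPT gene (ENSDARG00000019541, 155 CPM in akr1a1a+/+ larvae) was not called, at -0.14 (edgeR adjusted p = 0.157). The more abundant SLC25A10 gene (ENSDARG00000025074, 47.1 CPM in akr1a1a+/+ larvae) was not called either, at 0.14 (edgeR adjusted p = 0.346). The more abundant GPD1 gene (ENSDARG00000043180, 66.2 CPM in akr1a1a+/+ larvae) rose by 0.26 (edgeR adjusted p = 0.00978). With the lane it was not called (0.25, edgeR adjusted p = 0.182). LDHB, at 407 CPM in akr1a1a+/+ larvae, was not called (-0.02, edgeR adjusted p = 0.877). The gene that fell was GPD1L (-0.32, edgeR adjusted p = 0.00628), which was not called with the lane.

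Of 28 genes tested for the opposing glycolytic steps, 5 rose and 2 fell (median 0.03). The muscle-type phosphofructokinase PFKM rose by 0.61 ± 0.10 (ENSDARG00000060797) and 0.52 ± 0.10 (ENSDARG00000014179), and gckr, a regulator of glucokinase, by 1.52 ± 0.33 from 0.663 to 1.91 CPM. PDK1, a kinase that inhibits pyruvate dehydrogenase, fell from 26.8 ± 2.27 to 19.7 ± 1.82 CPM, by 0.44 ± 0.09 on the log2 scale. After adding the lane, PFKM ENSDARG00000060797 (0.73) and PDK1 (-0.65) were still called, and gckr (0.55, edgeR adjusted p = 0.602) and the other PFKM gene (0.41) were not. In that fit 4 genes of the list were called, beside 6.45% of all genes. They included PKLR, a pyruvate kinase (-1.03, edgeR adjusted p = 0.0177), and PFKL ENSDARG00000099755, a phosphofructokinase (-0.30, edgeR adjusted p = 0.0499). Without the lane, PKLR was not called (-0.39, edgeR adjusted p = 0.128).

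Of 19 genes tested for glycogen turnover, 2 rose and 3 fell (median -0.02). PYGM (ENSDARG00000055518), the muscle glycogen phosphorylase, rose from 82.4 ± 10.3 to 162 ± 26.2 CPM, by 0.97 ± 0.11 (edgeR adjusted p = 7.16e-06), and by 1.06 with the lane as a covariate. GBE1 (ENSDARG00000029051), a gene of the branching enzyme, fell by 0.56 on the log2 scale, from 1.38 to 0.935 CPM. UGP2 (ENSDARG00000008200), which makes UDP-glucose, fell by 0.23. Neither of them was called with the lane as a covariate. The more abundant GBE1 gene (ENSDARG00000099524) had 14.7 CPM in akr1a1a+/+ and 16.6 CPM in akr1a1a-/- larvae and was not called (0.17, edgeR adjusted p = 0.178). Nor was the more abundant PYGM gene (ENSDARG00000013317, 181 CPM in akr1a1a+/+ larvae), at 0.145 (edgeR adjusted p = 0.0568). The more abundant UGP2 gene (ENSDARG00000005578, 72.3 CPM in akr1a1a+/+ larvae) was not called either, at -0.088 (edgeR adjusted p = 0.171).

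Of 14 genes tested for hormones and their receptors, 0 rose and 2 fell (median -0.06). INSR (ENSDARG00000011948), an insulin receptor, fell from 95.5 ± 2.52 to 78.0 ± 3.92 CPM, by 0.29 ± 0.04 on the log2 scale (edgeR adjusted p = 5e-05). Its ranges did not overlap between the genotypes, as for 7.45% of all genes tested, and it was called with the lane as a covariate (-0.39). The other insulin receptor gene, INSR ENSDARG00000071524, had 36.8 ± 3.62 CPM in akr1a1a+/+ and 33.4 ± 2.56 CPM in akr1a1a-/- larvae. It was not called (-0.14, edgeR adjusted p = 0.237), nor was it with the lane as a covariate (-0.34, edgeR adjusted p = 0.099).

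Of 49 genes tested among transcription regulators of pck1 and g6pc, 2 rose and 7 fell (median -0.06). The factor creb3l3a rose by 0.49 ± 0.14, and PPARA (ENSDARG00000054323), a fasting-responsive nuclear receptor in mammals, fell from 4.54 ± 0.967 to 3.16 ± 0.499 CPM, by 0.52 on the log2 scale. CEBPA fell by 0.30 and ONECUT1 by 0.23. In the fit with the lane, PPARA (-0.89) was called and the other 3 were not.

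Several of these calls were close to the threshold. When each of the 12 samples of both genotypes was left out in turn, CEBPA and GBE1 each lost their call in 10 of 12 fits, ONECUT1 in 7, UGP2 in 6, ALDOA ENSDARG00000034470 in 4, PPARA in 3 and creb3l3a in 2. The other 13 genes named from the lists, and akr1a1a, kept it in all 12.

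**Figure D5:**
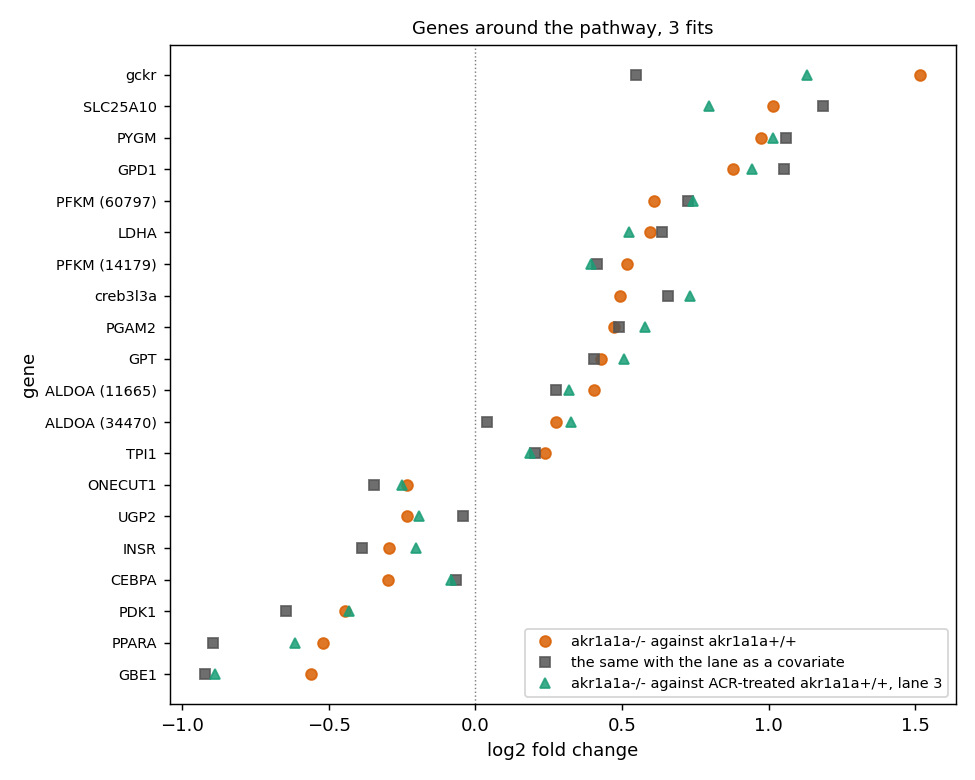
Log2 fold change of 20 named genes of the pathway and regulator lists in 3 fits, namely akr1a1a-/- against akr1a1a+/+ larvae, the same with the lane as a covariate, and akr1a1a-/- against ACR-treated larvae within lane 3; numbers in brackets are the last digits of an ID where a symbol occurs for more than 1 gene shown. Each gene keeps its sign in the 3 fits, with gckr ranging from 0.55 to 1.52.

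Markers of tissues that are known for the pathway were counted in the same way in akr1a1a-/- against akr1a1a+/+ larvae, beside 16.2% of all genes called. Of 26 liver markers tested 5 rose and 3 fell (median log2 fold change -0.08, with 8 positive and 18 negative values). Of 21 intestine markers 3 rose and 1 fell (median 0.17, 15 positive and 6 negative). Of 19 kidney tubule markers 4 rose and 0 fell (median -0.01, 8 positive and 11 negative). The counts of the intestine and kidney lists were near the share over all genes. Summed levels are carried by the most abundant markers and need not follow these medians. The summed level of the liver markers was between 8114 and 10512 CPM in akr1a1a+/+, 9279 and 11802 CPM in akr1a1a-/- and 7656 and 10602 CPM in ACR-treated larvae. That of the kidney tubule markers was at most 796.7 CPM in untreated akr1a1a+/+ and at least 797.9 CPM in akr1a1a-/- larvae, ranges that nearly touched. In ACR-treated akr1a1a+/+ larvae it was between 685.8 and 799.6 CPM and overlapped the akr1a1a-/- range. In the fit with the lane, 2 liver, 2 intestine and 3 kidney tubule markers were called, beside 6.45% of all genes. The part of these tissues in the values of the pathway genes was not tested.

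After ACR treatment, 0 of the 248 genes tested on all these lists were called by edgeR, with or without the replicate block, beside 0.138% and 0.0258% of all genes, and 0 by DESeq2. An unadjusted p under 0.05 was found for 7 (2.82%), beside 5.42% of all genes, and the list medians lay between -0.08 for the regulators and 0.07 for precursor supply. Between akr1a1a-/- and ACR-treated larvae, the called genes were 4 of 19 for the shared steps, 9 of 33 for precursor supply, 4 of 28 for the opposing steps, 6 of 19 for glycogen turnover, 2 of 14 for hormones and their receptors and 4 of 49 for the regulators, beside 13.8% of all genes. That comparison and the one of the genotypes share the akr1a1a-/- samples. Within lane 3 the counts were 2, 6, 5, 4, 2 and 3, in the same order, beside 7.99% of all genes.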

How the data were processed

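The 18 RNA-Seq samples comprised 3 groups of 6 (untreated akr1a1a+/+, untreated akr1a1a-/- and ACR-treated akr1a1a+/+ larvae). According to the submitters' processing notes, reads were processed with Trim Galore 0.6.4 and kallisto 0.4.6, and GRCz11 is named as the build. The annotation is not given in the sources used here. Per gene, TPM values and estimated counts that had not been normalized were deposited by the authors. Between 45.1% and 45.9% of genes per sample had counts that were not whole, so counts were rounded before testing. A distance of over 0.01 from a whole count can come from reads divided with another gene, which was not checked. Such a distance was found in all 18 samples for the major G6PC1 gene and fbp1a and in 17 for fbp2 and the steady PC gene. It was found in 11 for fbp1b, in 8 for pck1 (at most 0.042) and in 2 for the variable PC gene (at most 0.0332). For pck2, g6pc1a.1 and the minor G6PC1 gene it was found in 0 samples.

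Groups, replicate numbers and lanes were taken from the labels. Symbols came from a table of gene IDs (29201 of 32520 matched), and chromosomes from RefSeq. The members and lists were chosen with earlier results of these data known. Tests used edgeR 4.0.16 in R 4.3.3 (glmQLFit, glmQLFTest, TMM, filterByExpr), with 1 mean per group, 15 residual degrees of freedom and Benjamini-Hochberg adjusted p values over 23223 genes, with a threshold of 0.05. Standard errors are approximate, and intervals use them with the fit's degrees of freedom. The edgeR fit, with and without the replicate block, DESeq2 and limma were tested on simulated counts. The simulated samples were independent, with the same dispersion for every gene and without lanes or paired replicates. How the fits behave under those conditions was therefore not tested. CPM used TMM-scaled totals, and log2 CPM a prior count of 2. Samples were clutches of pooled larvae. Counts of up to 3, or 0.147 to 0.151 CPM, were read as not detected, a limit for counting error only.

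The text names every member, akr1a1a, up to 4 genes with the largest log2 fold change per list and comparison (adjusted p under 0.05, mean of at least 1 CPM), and the 3 most similar genes per member. For the lists, the genes of the genotype comparison are given, and 2 genes that the rule took are not reported here, though the counts include them. Pairing was checked by the correlation of deviations from group means between samples of the same number. It was between 0.249 and 0.603 for ACR-treated and untreated larvae, every pair correlating best with its own number (6 of 6). Alternatives were DESeq2 1.42.0 (size factors, Wald test), other filters, fits of only the groups compared, the replicate block, a lane covariate, single lanes, limma 3.58.1 on log2(TPM + 1) and log2(TPM + 0.1), and leaving out each sample. The block in fits of only the groups compared, and the fit of only akr1a1a-/- and ACR-treated samples, were added after the data were seen.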

Additional observations from a re-analysis of the deposited data

Results flagged for a closer look

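In 3 of 30 groups of 6 samples (10 genes, 3 groups), 1 sample stood apart from the other 5 by more than 5 of 8 parts of the whole range of CPM values. About 1 in 20 groups is expected to be found in this way by chance. The major G6PC1 gene had 109 CPM in replicate 6 of ACR-treated larvae, beside 152 to 170.0 CPM in the other 5. The minor G6PC1 gene had 0.408 CPM, or 8 counts, in replicate 6 of akr1a1a-/- larvae, beside 0.247 to 0.296 CPM. fbp1a had 38.2 CPM in replicate 3 of ACR-treated larvae, beside 43.1 to 45.7 CPM.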

How the results depend on the processing

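For the count of members called, the value was 0 in the main analysis of each comparison. In akr1a1a-/- against akr1a1a+/+ larvae it was 1 without the filter on low counts (the minor G6PC1 gene, which the filter had removed), 1 in the fit of only the 2 groups (fbp2) and between 0 and 1 when each sample was left out in turn, and against ACR-treated larvae it was 1 with DESeq2's Wald test (fbp2). It stayed at 0 under all other alternatives, and for ACR treatment under every alternative. With the replicate block, the log2 fold change of fbp2 in akr1a1a-/- against akr1a1a+/+ larvae was 0.49 (edgeR adjusted p = 0.0821) and no member was called in any comparison. Between akr1a1a-/- and untreated akr1a1a+/+ larvae, same-numbered deviations correlated only weakly, between 0.0387 and 0.131, beside a mean of -0.0153 for other pairs. Of 6 samples, 1 correlated best with its own number. The block raised the count of all genes called from 3752 to 4828.

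Directions turned only for members far from the threshold. In akr1a1a-/- against akr1a1a+/+ larvae, the lane covariate gave 0.031 for g6pc1a.1, 0.18 for the major G6PC1 gene, -0.0565 for fbp1a and 0.57 for the variable PC gene, and limma gave -0.039 and -0.0399 for fbp1a with the 2 pseudocounts. The medians over all genes tested were -0.0487 and -0.057 in these limma fits, lower than the values of fbp1a. After ACR treatment, the steady PC gene turned to -0.002 with DESeq2's size factors and Wald test, -0.0025 without the filter, -0.0016 with at least 10 counts in every sample, -0.0017 in the fit of only the 2 groups, -0.0008 with the replicate block in that fit and -0.0303 with the treated samples of lane 3. The major G6PC1 gene turned to 0.0258 with the replicate block, 0.0112 with the block in the fit of only the 2 groups, 0.0961 with the lane covariate, 0.0304 and 0.031 with limma and 0.0959 within lane 2. The medians over all genes tested were 0.0153 and 0.0183 in the limma fits after ACR treatment. With the treated samples of lane 3, fbp1b was at -0.0742, fbp2 at 0.0381 and the variable PC gene at -0.25. Within lane 3, akr1a1a-/- against ACR-treated larvae gave 0.0784 for the major G6PC1 gene and 0.0872 for the variable PC gene. Causes were not tested.

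When each sample was left out in turn, log2 fold changes after ACR treatment lay between -0.19 and 0.0874 for fbp2, -0.14 and 0.11 for the major G6PC1 gene, -0.0136 and 0.0171 for the steady PC gene, -0.0551 and 0.19 for pck1 and -0.0308 and 0.0937 for fbp1b. In akr1a1a-/- against akr1a1a+/+ larvae they lay between -0.21 and 0.0559 for the major G6PC1 gene and -0.0335 and 0.0459 for fbp1a. Intervals of pck1, the major G6PC1 gene and the variable PC gene were wide in akr1a1a-/- against akr1a1a+/+ larvae, with folds from 0.875 to 1.65, 0.693 to 1.29 and 0.638 to 1.26, and changes within these limits were not told apart from none.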

Other observations

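Beside the 60 genes whose replicates 1 to 3 were above replicates 4 to 6 in all 3 groups, 44 genes had them below in all 3 groups. Among the dedicated enzymes, the variable PC gene was the only one of the 9 tested with either pattern in all 3 groups, though the steady PC gene had it in akr1a1a-/- and ACR-treated larvae, g6pc1a.1 in akr1a1a-/- larvae and the major G6PC1 gene in ACR-treated larvae. The second akr1a1 gene of the zebrafish, listed as AKR1A1 (ENSDARG00000052030), was at 14.7 ± 1.44 CPM (SD, n = 6) in akr1a1a+/+ and 16.9 ± 0.988 CPM in akr1a1a-/- larvae, a log2 fold change of 0.20 (edgeR adjusted p = 0.0716).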
